A study of Mus musculus with 6 samples.

Results

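Microtubules are built from heterodimers of alpha and beta tubulin, and mammals encode each subunit in several closely related genes, the isotypes. The isotypes are nearly alike over most of their length and differ mainly in a short acidic tail at the C terminus, where enzymes add or remove tyrosine, glutamate and glycine residues and where motors and microtubule-associated proteins bind. Cells also keep the amount of tubulin mRNA in balance with the pool of free heterodimer, since an excess of free tubulin leads to decay of tubulin mRNAs that are being translated.

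The alpha and beta tubulin isotypes examined here were chosen by gene family, as 10 Ensembl gene identifiers, and were kept where the expression table held a row. Of the 10 isotypes, 4 had a row among the 17204 genes of the table, the alpha isotype Tuba4a (ENSMUSG00000026202) and the 3 beta isotypes Tubb2a (ENSMUSG00000058672), Tubb5 (ENSMUSG00000001525) and Tubb6 (ENSMUSG00000001473). The identifiers of 3 further alpha isotypes (Tuba1a, Tuba1b and Tuba1c) and 3 further beta isotypes (Tubb2b, Tubb3 and Tubb4b) had no row, so these 6 genes were not analysed here. No measured value stands in the rule beyond the presence of a row, but the family was selected on a table whose comparison of the cell lines was already known. The differences of the members between the cell lines are therefore given as a description, and the counts of members past a threshold stand only beside the share of all genes past it.

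The cells were squamous cell carcinoma (SCC) cells from K14CreER FAKflox/flox mice of the FVB background, in which the keratin-14 promoter drives a tamoxifen-inducible Cre recombinase. Tumors were induced chemically in the skin, and a single clone that had lost focal adhesion kinase (FAK) after 4-hydroxytamoxifen gave the SCC FAK-/- cells. SCC FAK-wt cells were this clone after retroviral re-expression of wild-type FAK, kept under hygromycin selection, so that both lines carry the deleted locus, and the return of FAK cannot be told apart from transduction and selection. RNA from 3 biological replicates of each line was hybridized to 1 Affymetrix mouse array per sample (6 in all), and the cells were cultured without any other treatment named in the labels. The array medians lay between 5.90 and 5.97 on the log2 scale and the upper quartiles between 8.04 and 8.12. The row of the fak gene and the markers of squamous cells could not be identified by name in this table, so neither the targeted gene nor the cell type was checked against the values.

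Tuba4a was higher on every SCC FAK-wt array than on any SCC FAK-/- array, by 1.31-fold between the means, whereas the arrays of both lines overlapped for Tubb2a, Tubb5 and Tubb6. The 3 beta isotypes differed between the lines by -0.01 to 0.03 log2 units. To show the regulatory sequence in front of the isotype whose arrays separated beside that of beta isotypes whose arrays overlapped, the RefSeq promoter windows (build GRCm38.p6, from 250 bases before the transcription start to 50 bases after it, 5′ to 3′ on the strand of the gene) are printed for 3 of the 4 members. Capitals mark every match, on either strand, to the GC box letters GGGCGG, the CCAAT box letters CCAAT and the TATA box letters TATAAA.
Tuba4a, chr1:75219245-75219544, - strand: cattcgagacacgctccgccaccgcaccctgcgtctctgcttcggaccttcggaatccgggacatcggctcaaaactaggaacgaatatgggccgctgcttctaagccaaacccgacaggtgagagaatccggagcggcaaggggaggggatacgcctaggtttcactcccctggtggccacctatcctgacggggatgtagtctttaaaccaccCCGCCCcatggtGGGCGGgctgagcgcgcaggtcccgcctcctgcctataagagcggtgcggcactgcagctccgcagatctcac
Tubb2a, chr13:34077959-34078258, - strand: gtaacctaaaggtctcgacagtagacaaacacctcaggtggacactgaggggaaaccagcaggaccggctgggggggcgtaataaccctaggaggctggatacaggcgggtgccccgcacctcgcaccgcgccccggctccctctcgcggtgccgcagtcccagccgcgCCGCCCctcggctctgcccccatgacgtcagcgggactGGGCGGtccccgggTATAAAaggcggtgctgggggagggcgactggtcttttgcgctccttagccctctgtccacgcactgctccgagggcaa
Tubb5, chr17:35838252-35838551, - strand: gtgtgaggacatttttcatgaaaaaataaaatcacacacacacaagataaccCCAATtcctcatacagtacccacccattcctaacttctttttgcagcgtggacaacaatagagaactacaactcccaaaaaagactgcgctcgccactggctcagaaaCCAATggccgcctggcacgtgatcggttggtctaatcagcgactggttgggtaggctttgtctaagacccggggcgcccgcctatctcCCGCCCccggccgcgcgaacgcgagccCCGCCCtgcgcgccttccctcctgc

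The Tuba4a window held 2 GC boxes, which began 35 and 23 bases before the transcription start, and neither a CCAAT box nor the TATAAA letters. Tubb2a also held 2 GC boxes, which began 81 and 43 bases before the start, with 1 TATA box 29 bases before it. Tubb5 held 2 CCAAT boxes and 2 GC boxes, 1 GC box beginning 2 bases before the start and 1 inside the transcribed part. The GC box was the element that the 3 windows shared, though at different positions. It is common, and 35.7% of the 32851 RefSeq promoter windows of this length held at least 1, against 37.4% for CCAAT and 13.6% for TATAAA. No printed match overlapped another. These matches describe the letters only, and binding at them was not measured.

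Tuba4a is an alpha isotype whose gene does not encode the C-terminal tyrosine that most alpha tubulins carry. In the order of their replicate numbers, the SCC FAK-wt samples measured 11.84, 11.84 and 11.76 on the log2 scale, and the SCC FAK-/- samples 11.39, 11.44 and 11.44. The lowest SCC FAK-wt value stood 0.32 log2 units above the highest SCC FAK-/- value, a gap wider than the range within either line (0.08 for SCC FAK-wt and 0.05 for SCC FAK-/-). The means were 11.81 ± 0.05 (SD, n = 3) and 11.42 ± 0.03 (SD, n = 3), a log2 difference of 0.39 with a standard error of 0.09. This standard error comes from the linear model fitted to all genes with limma, which draws the variance of each gene toward that of the others, and it is larger than the Tuba4a arrays alone would give (0.03 without that step).

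Tubb5 is the class I beta tubulin, the constitutive isotype of most non-neuronal cells. SCC FAK-wt samples gave log2 values of 12.19, 12.23 and 12.13, where SCC FAK-/- samples gave 12.20, 12.19 and 12.20. The SCC FAK-/- values all lay inside the SCC FAK-wt range. The log2 difference was -0.01 (standard error 0.09), or 0.992-fold, from means of 12.18 ± 0.05 (SD, n = 3) in SCC FAK-wt and 12.20 ± 0.01 (SD, n = 3) in SCC FAK-/- cells.

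Tubb6, the class V beta tubulin, is a minor isotype of many tissues, and its overexpression is known to disturb the microtubule network of cultured cells. Log2 values of 11.73, 11.84 and 11.68 were measured in the SCC FAK-wt samples, next to 11.62, 11.69 and 11.84 in the SCC FAK-/- samples. The highest arrays of both lines, SCC FAK-wt replicate 2 and SCC FAK-/- replicate 3, were level at 11.84, and the spread within a line exceeded the difference between the lines. That difference was 0.03 log2 units (standard error 0.11), or 1.02-fold, between means of 11.75 ± 0.08 (SD, n = 3) and 11.72 ± 0.11 (SD, n = 3).

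Tubb2a is a class II beta tubulin, abundant in neurons and found in many other cells. Its log2 values were 7.73, 7.38 and 7.57 in SCC FAK-wt and 7.49, 7.63 and 7.56 in SCC FAK-/- cells. SCC FAK-wt replicates 1 and 2 gave the highest and the lowest value of the 6 arrays, so that all SCC FAK-/- arrays fell between them. The means, 7.56 ± 0.18 (SD, n = 3) and 7.56 ± 0.07 (SD, n = 3), differed by less than 0.01 log2 units, with a standard error of 0.12, the highest among the 4 isotypes. Its near-identical neighbour Tubb2b had no row, and the probes behind each row are not given in the sources used here, so signal shared between isotypes of like sequence cannot be told apart for any member.

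**Figure D1:**
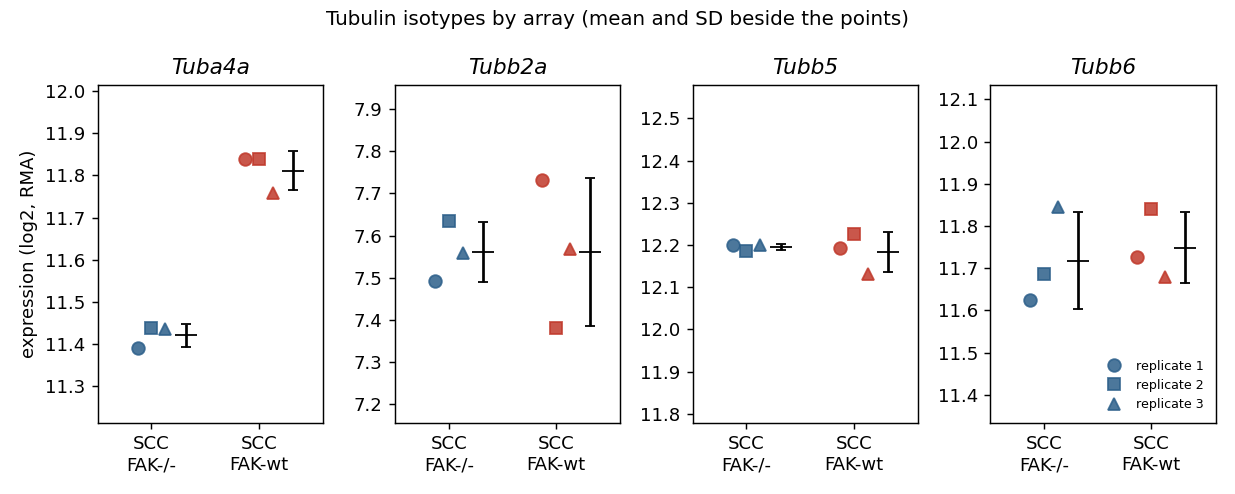
Expression of the 4 tubulin isotypes on each array, on the log2 scale of the deposited values, with 1 panel per gene and the same span of 0.8 log2 units on each vertical axis. Points are arrays (shape gives the replicate number, blue SCC FAK-/-, red SCC FAK-wt), and bars beside them give the mean and SD of 3 arrays. The Tuba4a points separate by cell line, and those of Tubb2a, Tubb5 and Tubb6 overlap. The vertical position is not comparable between panels, since each gene was read by other probes.

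Because values of different genes come from different probes, the level of 1 isotype was not set against that of another. The change of 1 isotype relative to another within the same array can be compared between the lines, and this ratio does not depend on how the arrays were scaled to each other by a constant. The log2 ratio of Tuba4a to Tubb5, expressed relative to its SCC FAK-/- mean, reached 0.42, 0.39 and 0.40 in the SCC FAK-wt samples, next to -0.04, 0.03 and 0.01 in the SCC FAK-/- samples. The mean shift was 0.40 log2 units, or 1.32-fold. The ratio to Tubb6 shifted by 0.36 log2 units, with SCC FAK-wt arrays at 0.29 to 0.41 and SCC FAK-/- arrays at -0.11 to 0.06. The ratio to Tubb2a shifted by 0.39, with the widest spread among SCC FAK-wt arrays, 0.25 to 0.60, beside -0.06 to 0.04 in SCC FAK-/- cells. In all 3 ratios the arrays of the lines did not overlap. Ratios between the beta isotypes shifted by 0.01 (Tubb2a over Tubb5), -0.03 (Tubb2a over Tubb6) and -0.04 (Tubb5 over Tubb6), each within the spread of the arrays. The 3 ratios to Tuba4a share its values and are not separate observations of a difference.

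**Figure D2:**
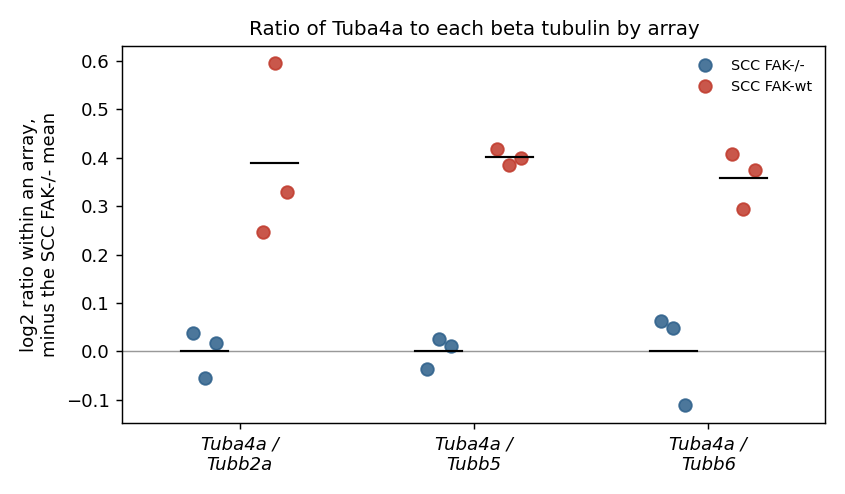
The log2 ratio of Tuba4a to each beta tubulin within an array, with the SCC FAK-/- mean of each ratio set to 0. Points are arrays (3 per cell line), and short lines are means. The SCC FAK-wt points lie above the SCC FAK-/- points in each ratio, 0.25 being the lowest of them, and the ratio to Tubb5 has the narrowest spread among SCC FAK-wt arrays.

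Against the whole table, the median log2 difference over the 4 isotypes was 0.01, beside 0.02 over all 17204 genes. The median absolute difference of all genes was 0.14 log2 units, so the differences of Tubb2a, Tubb5 and Tubb6 were below that of the median gene and that of Tuba4a was above it. A larger absolute difference than that of Tuba4a was found in 14.0% of the genes, and a higher difference in the same direction in 1146 genes, 6.66% of the table. The spread within the lines was low for Tuba4a and Tubb5, with pooled SDs of 0.04 and 0.03, against a median of 0.17 over all genes, 0.10 for Tubb6 and 0.13 for Tubb2a. That median covers dim and bright genes alike, and the spread was not compared among genes of like brightness. Of the 4 isotypes, 1 (Tuba4a) had arrays that did not overlap between the lines, as did 21.5% of all genes. The same isotype, 1 of 4, was past an unadjusted p under 0.01 in the limma fit, as were 6.85% of all genes. None of the isotypes (0 of 4) was called at a Benjamini-Hochberg adjusted p under 0.05, where 1.92% of all genes were called and where the count at the unadjusted threshold was 1 of 4. Over the 14 processing alternatives described below, Tuba4a was past the unadjusted threshold in 9. It was past the adjusted threshold in 1, with a trended and robust variance prior. As the family was selected with this comparison known, nothing is read from these counts.

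**Figure D3:**
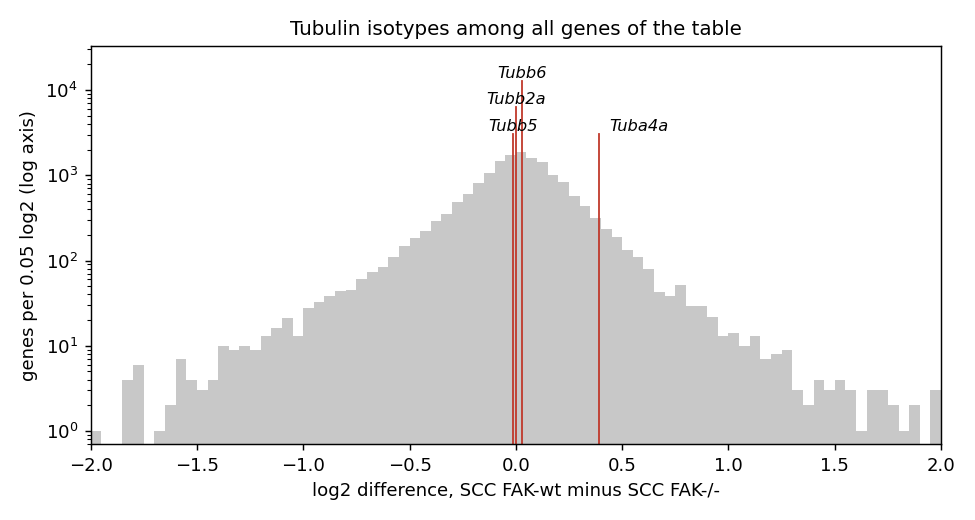
Histogram of the log2 difference (SCC FAK-wt minus SCC FAK-/-) over the genes of the table in bins of 0.05 log2 units, with a logarithmic count axis and 26 genes beyond 2 log2 units on either side not drawn. Red lines mark the tubulin isotypes, their heights set only to keep the names apart. Tubb5, Tubb2a and Tubb6 lie at the centre and Tuba4a at 0.39.

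The deposited values were already normalized between arrays, so further scalings were a weak check of the sign. The Tuba4a difference kept its sign under each scaling that was tried. It was 0.34 log2 units under quantile normalization and under cyclic loess, and 0.42 when each array was centered on its median. Leaving out an array could not reverse the sign, because every SCC FAK-wt array lay above every SCC FAK-/- array. Those fits show only the size of the difference, which was 0.37 to 0.42 with each of the 6 arrays left out in turn.

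The differences of the beta isotypes took both signs over the alternatives and stayed small. They ranged from -0.09 to 0.09 for Tubb2a, from -0.07 to 0.02 for Tubb5 and from -0.02 to 0.09 for Tubb6. The extremes of Tubb2a came without SCC FAK-wt replicate 1 (-0.09) and without SCC FAK-wt replicate 2 (0.09), the arrays with its highest and lowest value. The highest value of Tubb6 came without SCC FAK-/- replicate 3. Differences this small beside their standard errors do not show that the levels in the lines are equal.

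**Figure D4:**
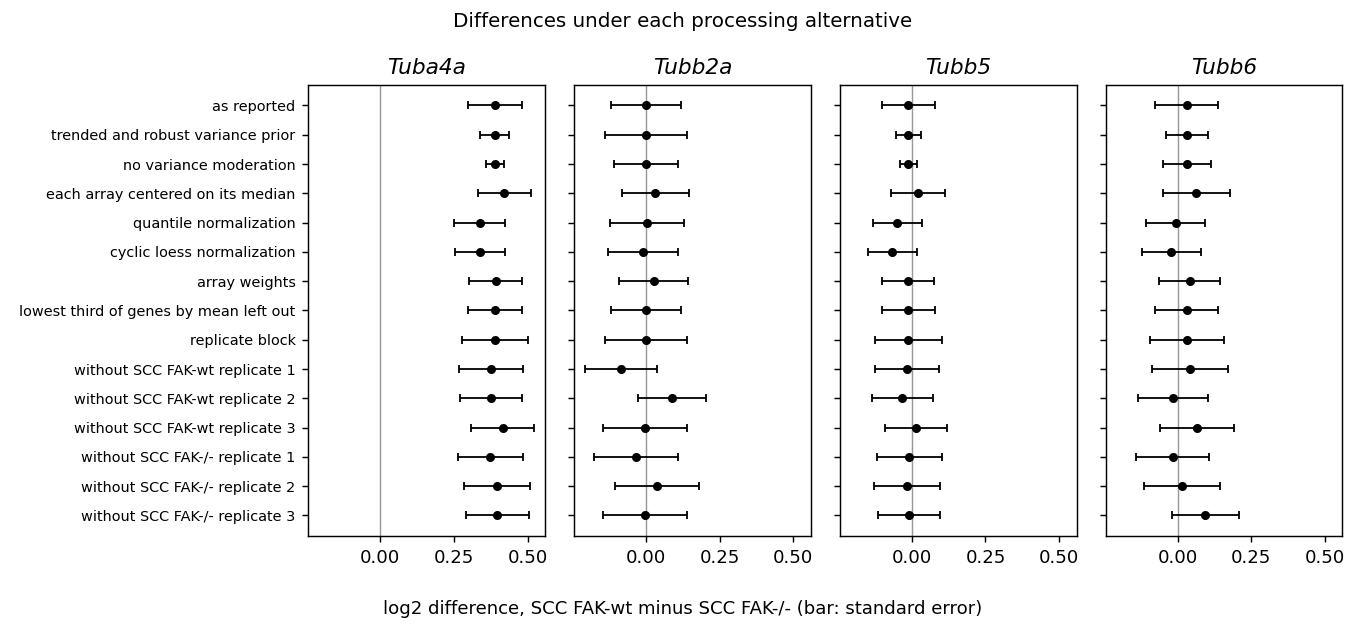
Log2 difference of each isotype (SCC FAK-wt minus SCC FAK-/-) as reported and under each of the 14 alternatives. Points are estimates and bars standard errors of the fit. Tuba4a lies at 0.34 to 0.42 in every row, and Tubb2a, Tubb5 and Tubb6 lie on both sides of 0.

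Pearson correlation over the 6 arrays is set mainly by the separation of the cell lines and is given as a description. By this measure, the rows most like Tuba4a were ENSMUSG00000070047 (r = 0.996), ENSMUSG00000022893 (r = 0.994) and ENSMUSG00000020840 (r = 0.993). Their log2 differences were 1.02, 1.25 and 0.49, the last being the nearest to that of Tuba4a. In all, 179 genes had an r above 0.95 with Tuba4a. The table does not pair these identifiers with gene names, and they are given as listed.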

How the data were processed

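Expression was measured on Affymetrix GeneChip mouse arrays in 3 SCC FAK-wt and 3 SCC FAK-/- samples. The authors reduced the probe signals to 1 value per Ensembl gene by RMA (affy package, with its normalization between arrays), and the deposited values are taken as log2 expression from their range (1.34 to 13.76 over all arrays). Versions and the probe mapping are not given in the sources used here. RMA compresses differences of dim genes, and bright genes can be compressed by saturation. Samples were grouped by the labels, and no 2 arrays held identical values.

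All 17204 genes were fitted with cell line as the single term in limma 3.58.1 in R 4.3.3 (lmFit, eBayes, two-sided, Benjamini-Hochberg adjustment over all genes), without a filter. The fit was also run on simulated data in which 200 genes were shifted by 1 log2 unit. That shift is larger than any isotype difference described here, so the run does not bear on differences of their size. Calls were made at an adjusted p under 0.05 and at an unadjusted p under 0.01. The study also used 0.01, without naming the test or an adjustment. Differences are SCC FAK-wt minus SCC FAK-/-. The alternatives were other variance priors, scalings, array weights, a filter on dim genes, the replicate number as a block and leaving out each array. The members and lists were chosen with earlier results of these data known.

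The members were named from the list of identifiers and symbols that defines the family. The reference table paired 0 of 17204 identifiers with a symbol, so the planned lists of other tubulins, folding, modifying and microtubule-associated genes, proliferation genes and cell type markers, and the fak gene, were not analysed here. Planned named genes were all members, the pathway genes with the largest changes and the 3 rows most like the member with the largest difference. Promoter windows are from RefSeq (GRCm38.p6) and are printed for 3 of 4 members. None is printed for Tubb6, and windows on a chromosome set aside beforehand were not used for members. The share of windows holding each motif was counted over all windows. The number of arrays limits the precision. All arrays come from a single clone and its transduced derivative, so the SDs and standard errors describe replicates of this pair of lines only.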

Additional observations from a re-analysis of the deposited data

How the results depend on the processing

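The Tuba4a difference of 0.39 log2 units was positive in all 14 alternatives. The sign could not change where arrays were left out or weighted, since every SCC FAK-wt array lay above every SCC FAK-/- array. Other variance priors, the filter on dim genes and the replicate block leave the estimate unchanged. Centering on the median could not change the sign either. The array medians lay between 5.90 and 5.97, a narrower span than the gap of 0.32 between the lines. Among the alternatives, only quantile normalization and cyclic loess could have changed the sign, and they started from values already normalized between arrays. The Tuba4a difference moved by more than its small replicate spread under quantile normalization (0.34) and cyclic loess (0.34), as did Tubb5 (-0.050 and -0.066). The cause was not tested. With an array left out, Tuba4a was at 0.37 to 0.42, Tubb2a at -0.09 to 0.09, Tubb5 at -0.03 to 0.01 and Tubb6 at -0.02 to 0.09. The median over the 4 isotypes was -0.02 to 0.05 over the alternatives. No scaling moved the median of all genes by over 0.1 (0.00 to 0.05).

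At an adjusted p under 0.05 the table held 141 genes with a higher value in SCC FAK-wt cells and 189 with a lower one. A trended and robust prior gave 247 and 302, no moderation 14 and 25, and leaving out an array 44 to 77 and 64 to 121, with fewer samples in each fit. The number higher at an unadjusted p under 0.01 was 549, and 329 to 481 with an array left out, the lowest without SCC FAK-/- replicate 2, beside 630 lower. A replicate block gave 69 higher and 91 lower at the adjusted threshold. The block leaves the Tuba4a difference itself at 0.39, with a standard error of 0.11, and with it Tuba4a was past neither threshold. Same-numbered arrays deviated from their line's mean with correlations of -0.03 to 0.03 over genes. Whether same-numbered arrays were handled together is not shown by these values and was not tested. The results that need other gene names were not run.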
